A study of Mus musculus with 6 samples.

Results

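Genes that govern entry into and exit from the division cycle, namely the cyclin-dependent kinase (CDK) inhibitors Cdkn1a, Cdkn1b, Cdkn2a, Cdkn2b and Cdkn2c, the D cyclins Ccnd1, Ccnd2 and Ccnd3, and Trp53 with its inhibitor Mdm2, were examined by RNA sequencing in IDG-SW3 cells. They were taken by symbol, 10 of the 23700 gene entries of the deposited tables in all, and each symbol matched 1 entry. IDG-SW3 is a line of mouse long bone cells that carries GFP under the Dmp1 promoter and a temperature-sensitive T antigen. The cells divide at the lower, permissive temperature with interferon gamma. At body temperature without it they mature from osteoblast-like cells towards osteocytes. All cultures had matured for 28 days with β-glycerophosphate (4 mM) and ascorbic acid (50 µg/ml). They then received either PBS (Control, 3 libraries) or 50 nM bovine PTH(1-34), the active fragment of parathyroid hormone (PTH, 3 libraries), for 24 hours. The design thus measures the response of matured cultures to the hormone. All 6 libraries share the transgene and the antigen, and each came from 1 well of 1 cell line.

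D cyclins bind the kinases CDK4 and CDK6, and the active complexes phosphorylate the retinoblastoma protein, which then releases the E2F factors that drive DNA synthesis. The INK4 inhibitors, encoded by Cdkn2a, Cdkn2b and Cdkn2c, block CDK4 and CDK6 alone, while the CIP/KIP inhibitors p21 and p27, encoded by Cdkn1a and Cdkn1b, act on a wider range of CDK complexes. The transcription factor p53 drives Cdkn1a and Mdm2, and MDM2 in turn marks p53 for destruction. In bone, PTH acts through a receptor that raises cyclic AMP, and many of its target genes carry the cyclic AMP response element, to which CREB binds. Active T antigen binds both p53 and the retinoblastoma protein. Whether any activity remained in the matured cultures was not tested, and any such activity would limit what they can show of either pathway. The T antigen transcript was not analysed here.

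Of these genes, 6 rose with PTH, 2 fell and 2 were not called. Cdkn2b and Trp53 rose most, to 1.82 and 1.72 times the Control level. Ccnd1 and Ccnd2 fell, while the remaining D cyclin, Ccnd3, rose. Cdkn1a, the most abundant of the genes, and Cdkn1b, the least abundant, differed by less than the spread between replicates in the deposited FPKM (fragments mapped to a gene, divided by transcript length and by the depth of the library). Calls are those of limma on log2(FPKM + 1), with 0.05 as the limit of the Benjamini-Hochberg adjusted p across the 11900 entries tested. The background of this comparison was high, since 73.8% of all tested entries were called (50.3% higher and 23.5% lower) and in 78.3% the libraries of the groups did not overlap. The share of 8 called among these 10 genes was near that background, and no overlap between groups was seen in the same 8. None of the 10 passed a 2-fold change, which 9.24% of tested entries did.

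Without Col1a1 and Col1a2, which had no estimate in Control, Control libraries held between 13958213 and 19043743 fragments, as implied by the deposited bounds. PTH libraries held between 22479950 and 24481480 over the same entries. These sums leave out the fragments of both genes, so they do not show which libraries were deeper in total. The median change of all tested entries was 0.15 on the log2 scale. Rescaling by median-of-ratios sets this median near 0 by design (0.0026), so that changes of this size turn on the scaling chosen. The smallest implied number behind any value of the 10 genes was 147 fragments, for Cdkn2c in Control replicate 2, and it was 330 for Cdkn1b and at least 671 for the others. The osteocyte label was borne out in Control by Dmp1 (827 ± 24.2 FPKM, SD, n = 3), Mepe, Phex and Sost, while Fgf23 was near 0 (0.00815 ± 0.0141 FPKM, and 0 in every PTH library). With PTH, Dmp1 fell to 3.64 ± 0.236 FPKM, 4 of 5 tested osteocyte markers fell and 1 rose, and all 5 adipocyte markers fell, with the adipocyte list going from a summed 504 to 708 FPKM in Control to 65.5 to 140.3 in PTH. Of 5 osteoblast markers 4 fell (Ibsp, Bglap, Sp7 and Runx2, with a list median change of -1.63) and Alpl was not called, and the summed osteoblast level was 27357 to 27866 FPKM in Control and 5286 to 6175 in PTH. Alpl was called lower under median-of-ratios, TPM and quantile normalization (limma adjusted p = 0.000964, 0.0232 and 0.00709). Over the 16 alternatives Bglap lost its call in 1 (limma adjusted p = 0.122), and Runx2 reached a limma adjusted p of 0.0499. Of 5 chondrocyte markers 3 fell, 1 rose and Matn1 was near 0. The 4 endothelial markers summed to at most 0.127 FPKM in any library, Ptprc, which marks blood cells, was at most 0.0156, and Cdh5 was listed at 0 throughout. Of the macrophage and osteoclast markers Ctsk was high (263 ± 6.71 and 306 ± 5.44 FPKM), Cd68 was called higher (1.02 ± 0.155 and 2.20 ± 0.525), Acp5 lower (3.04 ± 0.467 and 1.78 ± 0.555), and Csf1r was below 1 FPKM. Acp5 lost its call in 2 of the 15 alternatives that tested it (highest limma adjusted p = 0.0691). The fit without Control replicate 2 was 1 of these (limma adjusted p = 0.0508). In bulk RNA, fewer cells of a type and less RNA per cell cannot be told apart, and the part of these marker shifts in the results below was not tested.

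**Figure D1:**
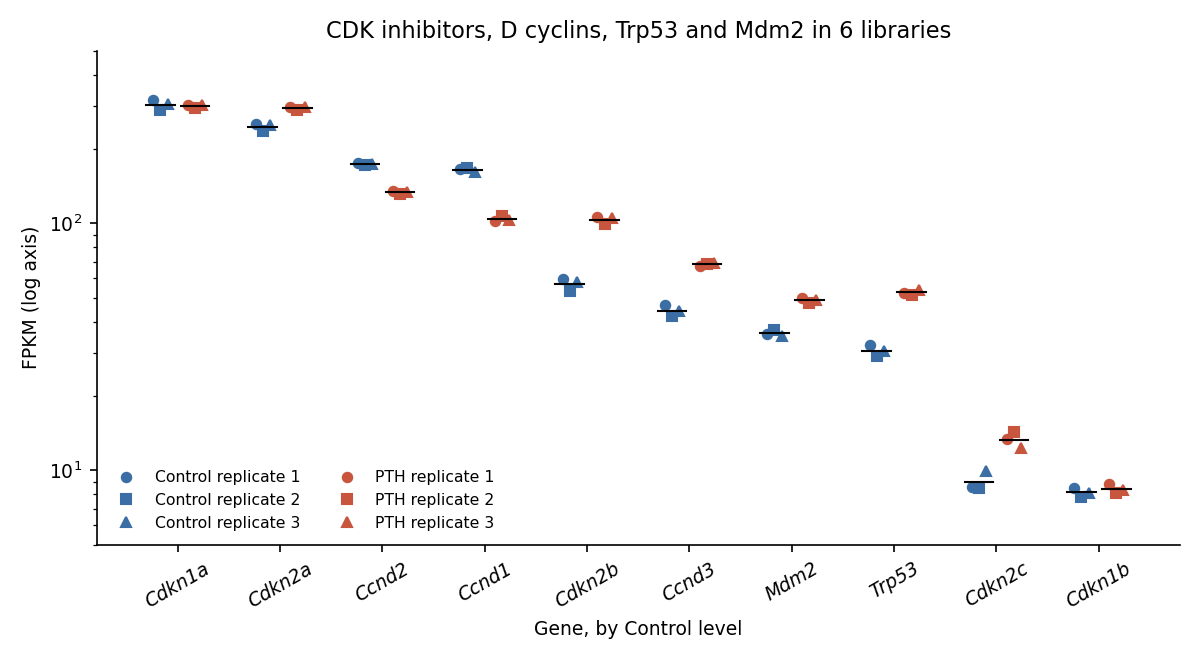
FPKM of each gene (log axis, genes ordered by their Control mean) in the 3 Control (blue) and 3 PTH (red) libraries, with a symbol for each replicate and a black line at the group mean. The groups are separate for 8 genes and overlap for Cdkn1a (287 to 315 FPKM in Control, 292 to 301 in PTH) and Cdkn1b.

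The INK4 genes all rose. Cdkn2b, which encodes p15, stands on chromosome 4 at 88952198 to 88956941 in the mm9 build of the files, and Cdkn2a lies 11674 bases from it at 88920377 to 88940523. Cdkn2a is read from 2 start sites into p16 and, in another reading frame, into ARF, an inhibitor of MDM2, and the gene-level FPKM does not separate these products. Whether promoter sequence had a part in these changes was not tested. The promoters of this locus were chosen for display after the values were seen. Each is the 250 bases before a start listed by RefSeq (GRCm38.p6, minus strand), with the cyclic AMP response element TGACGTCA in capitals. This element reads the same on both strands.
Cdkn2b, chr4:89311033-89311282: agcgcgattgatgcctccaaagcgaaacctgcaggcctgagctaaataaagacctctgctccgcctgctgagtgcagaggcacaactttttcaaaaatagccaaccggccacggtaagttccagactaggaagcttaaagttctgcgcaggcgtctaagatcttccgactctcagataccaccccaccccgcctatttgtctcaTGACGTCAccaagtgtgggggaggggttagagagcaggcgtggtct
Cdkn2a, distal start (ARF), chr4:89294620-89294869: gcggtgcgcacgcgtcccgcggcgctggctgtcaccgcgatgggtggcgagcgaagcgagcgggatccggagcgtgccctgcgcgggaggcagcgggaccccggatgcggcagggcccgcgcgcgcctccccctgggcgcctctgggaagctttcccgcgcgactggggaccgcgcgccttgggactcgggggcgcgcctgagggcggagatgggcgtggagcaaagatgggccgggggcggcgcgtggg
Cdkn2a, proximal start (p16), chr4:89282193-89282442: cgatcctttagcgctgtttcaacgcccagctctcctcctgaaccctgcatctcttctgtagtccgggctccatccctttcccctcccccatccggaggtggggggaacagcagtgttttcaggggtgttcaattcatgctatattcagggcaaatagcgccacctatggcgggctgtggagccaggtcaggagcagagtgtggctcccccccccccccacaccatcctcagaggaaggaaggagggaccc
The Cdkn2b sequence holds the element once, beginning 46 bases before the start, and neither Cdkn2a sequence holds these letters. RefSeq promoters matched 8 of the 10 genes (12 promoters, Ccnd1 and Ccnd2 being the 2 without), and Cdkn2b alone among these 8 held the full element, which is present in 1.55% of 32851 mouse promoters of this length (508). The shorter form TGACG, on either strand, is in 17.8% of mouse promoters of this length. Beside Cdkn2b, it was in both Ccnd3 promoters. Those of Cdkn2a, Cdkn2c, Trp53 and Mdm2, which also rose, held neither form. A match describes the letters only and is no evidence of binding.

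Cdkn2b had 59.6, 53.1 and 57.9 FPKM in Control and 105.7, 99.2 and 105.0 in PTH. Every PTH library lay far above the highest Control library. The mean went from 56.9 ± 3.33 to 103 ± 3.54 FPKM (SD, n = 3), a log2 change of 0.85 with a standard error of 0.051 (limma adjusted p = 1.07e-05). A larger change in either direction was seen in 12.8% of tested entries. Cdkn2a, more than 4 times as abundant in Control, had 253, 236 and 250 FPKM in Control and 297, 288 and 295 in PTH. Its groups also stood apart, by a smaller step. The log2 change of Cdkn2a was 0.25 with a standard error of 0.038 (limma adjusted p = 0.000936), and 56.0% of tested entries changed more. It was 0.11 above the median of all entries, and it shrank to 0.089 under median-of-ratios scaling (limma adjusted p = 0.0148) and 0.15 under quantile normalization.

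The ratio of Cdkn2b to Cdkn2a is free of any single scaling factor of a library, since both are read in the same library. It was 0.236, 0.226 and 0.232 in Control and 0.356, 0.345 and 0.355 in PTH. All PTH libraries were thus above all Control libraries, and the mean ratio rose 1.52-fold. On the log2 scale the difference was 0.61 (exact permutation test, two-sided, p = 0.1, adjusted p = 0.1 over 3 ratios), and 0.1 is the smallest p that 3 libraries against 3 can give. Such a test cannot pass 0.05 in this design.

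Cdkn2c, which encodes p18 and lies further along chromosome 4 (109333481 to 109337977), was expressed at a much lower level. It had 8.59, 8.46 and 9.90 FPKM in Control and 13.4, 14.3 and 12.3 in PTH. The groups did not overlap, although Cdkn2c had the widest spread of the 10 genes (coefficient of variation 8.85% in Control and 7.49% in PTH). Its log2 change was 0.52 with a standard error of 0.073 (limma adjusted p = 0.000673). Summed over these 3 genes, INK4 FPKM went from 312 ± 12.9 in Control to 410.02 ± 7.74 in PTH (SD, n = 3), a ratio of 1.31. Cdkn2a, with ARF transcripts not separated, still held most of it.

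The remaining INK4 gene, Cdkn2d, was listed as 2 entries that rose by 0.52 each (limma adjusted p = 0.000155 and 9.72e-05). They lie at different places on chromosome 9, with close values, such as 4.45 and 4.74 FPKM in Control replicate 1. Whether they share fragments was not tested, so they do not count as 2 separate results. The CIP/KIP gene Cdkn1c, which encodes p57, went the other way. It fell from 10.9, 9.72 and 11.9 FPKM in Control to 4.65, 3.75 and 3.72 in PTH, a log2 change of -1.23 (limma adjusted p = 3.68e-05). Cdkn3, a phosphatase of CDKs, had 5.91 ± 1.19 and 7.54 ± 1.43 FPKM (SD, n = 3) and was not called (limma adjusted p = 0.127).

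The CIP/KIP genes Cdkn1a and Cdkn1b stood at opposite ends of the range. Cdkn1a (p21, chromosome 17, 29227931 to 29237667) had 315, 287 and 304 FPKM in Control and 301.3, 292 and 300.5 in PTH, so that all 3 PTH values lay within the Control range. It was at the 98.3th percentile of tested entries in Control. Its log2 change was -0.016 with a 95% interval of -0.12 to 0.086 (limma adjusted p = 0.741). Cdkn1b (p27, chromosome 6, 134870419 to 134875543) had 8.50, 7.79 and 8.14 FPKM in Control and 8.77, 8.08 and 8.29 in PTH. Here too the groups overlapped, and the log2 change was 0.038 with a 95% interval of -0.070 to 0.15 (limma adjusted p = 0.47).

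Neither result holds under every scaling. Cdkn1a was called lower by median-of-ratios (-0.18, limma adjusted p = 0.00121), TPM (-0.087, adjusted p = 0.0126) and quantile normalization (-0.14, adjusted p = 0.0015). Cdkn1b turned negative under the same 3 scalings (-0.11, -0.026 and -0.072), and was called only by the first (limma adjusted p = 0.04). Within a library, Cdkn1a FPKM was 37.0, 36.8 and 37.3 times that of Cdkn1b in Control and 34.4, 36.2 and 36.2 times in PTH. These ratios did not overlap, but the gap was small, -0.059 on the log2 scale (exact permutation test, two-sided, p = 0.1, adjusted p = 0.1 over 3 ratios), and without PTH replicate 1 it was -0.034.

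**Figure D2:**
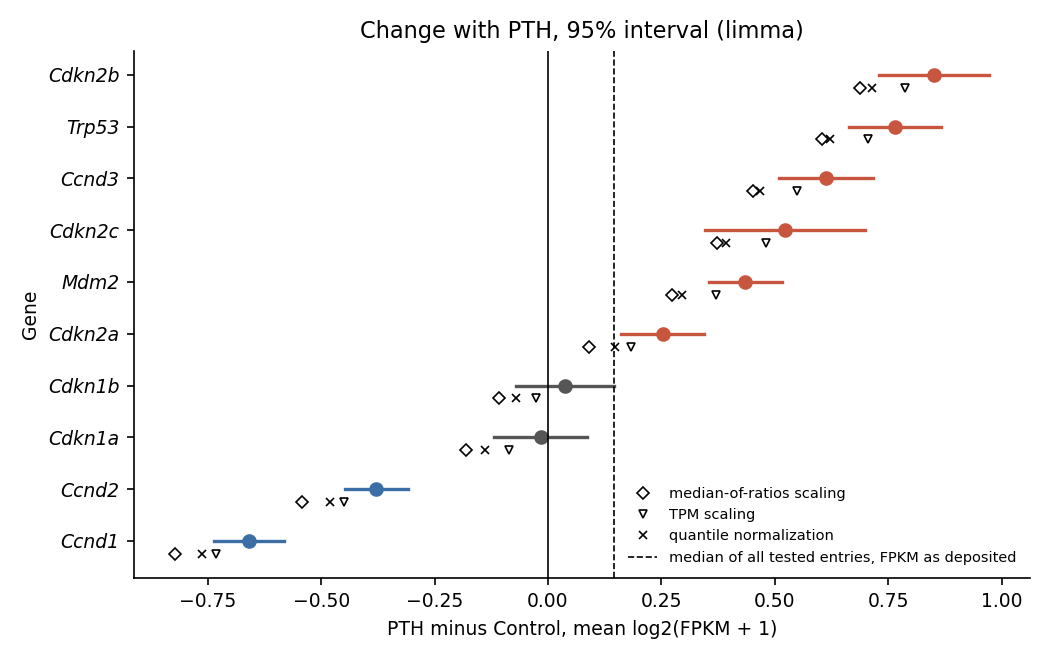
Change of each gene with PTH on the log2(FPKM + 1) scale (x axis), with filled points and lines for the limma estimate and its 95% interval (red called higher, blue called lower, grey not called) and black symbols for 3 other scalings, which are on their own log2 scale. The dashed line marks the median of all tested entries (0.15), and the filled points of Cdkn1a (-0.016) and Cdkn1b (0.038) lie nearest to 0, with Cdkn1b changing sign between scalings.

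The D cyclins moved in opposite directions. Ccnd1 (cyclin D1, chromosome 7, 152115836 to 152125830) had 167, 167 and 162 FPKM in Control and 102, 107.4 and 103 in PTH. Every PTH library was far below the lowest Control library. It went from 165 ± 2.82 to 104 ± 2.69 FPKM (SD, n = 3), a log2 change of -0.66 with a standard error of 0.032 (limma adjusted p = 4.24e-06). Ccnd2 (cyclin D2, chromosome 6, 127075727 to 127101066) had 176, 172 and 174 FPKM in Control and 135, 131 and 134 in PTH. Its fall was smaller and also without overlap between groups, at a log2 change of -0.38 with a standard error of 0.029 (limma adjusted p = 3.41e-05).

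Ccnd3 (cyclin D3, chromosome 17, 47642000 to 47736637) had 46.9, 42.01 and 44.1 FPKM in Control and 67.3, 68.4 and 69.1 in PTH. Every PTH library was higher, with a mean that rose from 44.3 ± 2.43 to 68.3 ± 0.877 FPKM (SD, n = 3), a log2 change of 0.61 with a standard error of 0.043 (limma adjusted p = 2.47e-05). All 3 directions held under each scaling. The Ccnd3 locus shares 358 bases with Bysl, which had 8.70 ± 0.631 and 11.97 ± 0.565 FPKM, and the Ccnd2 locus shares 1660 bases with 9330179D12Rik, at 0.860 ± 0.160 and 0.859 ± 0.194. The library kit does not mark strand, so fragments in such shared stretches cannot be assigned by strand. RefSeq also lists pseudogenes named Ccnd3-ps and Trp53-ps, and the level of their parent genes is uncertain to the extent that fragments were divided between them.

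The make-up of the D cyclin pool shifted with these changes. Ccnd1 made up 42.7%, 43.9% and 42.7% of summed D cyclin FPKM in Control and 33.6%, 34.95% and 33.7% in PTH. No PTH library reached the Control range, and the mean share fell by 9.03 percentage points (exact permutation test, two-sided, p = 0.1, adjusted p = 0.1 over 3 ratios). The share of Ccnd3 went from 11.6% ± 0.505 to 22.3% ± 0.248 (SD, n = 3), and that of Ccnd2 from 45.3% ± 0.331 to 43.6% ± 0.816. Ccnd1 was 3.73 ± 0.220 times as abundant as Ccnd3 in Control and 1.53 ± 0.0380 times in PTH. The summed D cyclin FPKM went from 383 ± 5.32 to 306 ± 1.02. Set against the INK4 genes, the ratio of summed INK4 to summed D cyclin FPKM was 0.813 ± 0.0297 in Control and 1.34 ± 0.0296 in PTH. In FPKM, the INK4 gene sum was below the D cyclin sum in all Control libraries and above it in all PTH libraries. The INK4 sum includes any ARF transcripts of Cdkn2a, so it is not a measure of INK4 products alone. These sums follow from the single genes above and are given without a test.

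**Figure D3:**
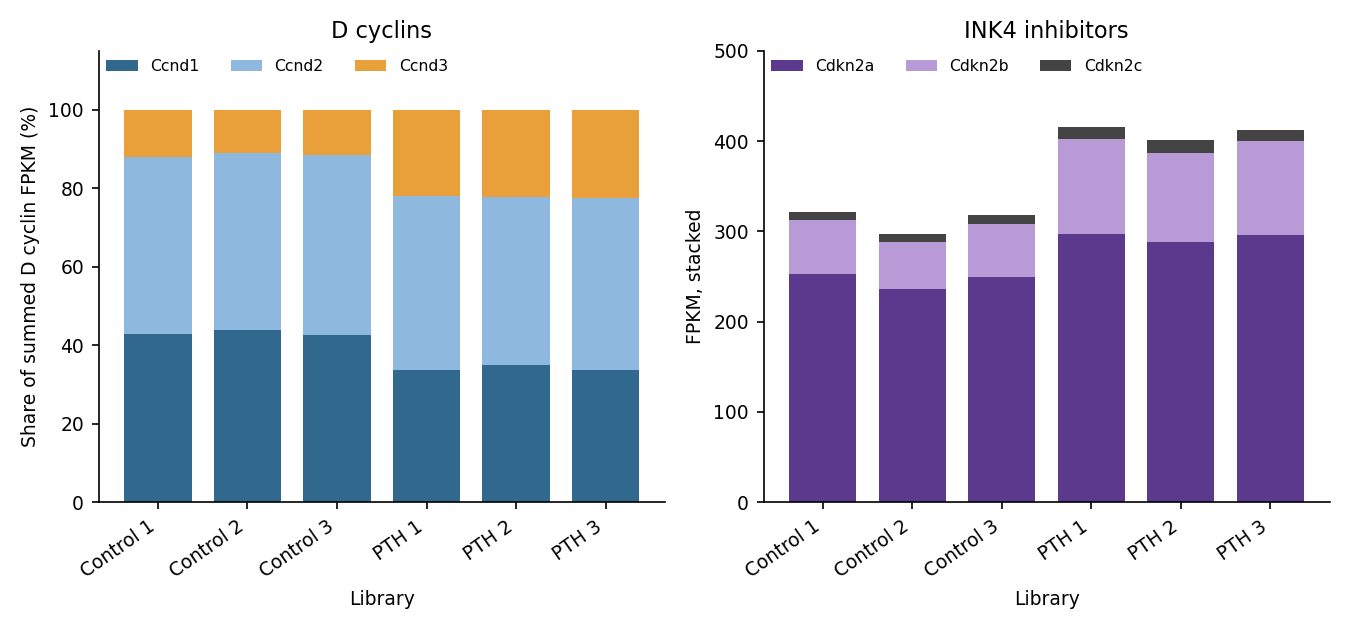
Left, percent of summed D cyclin FPKM held by Ccnd1, Ccnd2 and Ccnd3 in each library, and right, FPKM of Cdkn2a, Cdkn2b and Cdkn2c stacked for each library. Ccnd3 held 11.0% to 12.03% of the D cyclin sum in Control and 22.1% to 22.6% in PTH, and the INK4 sum was 297 to 321 FPKM in Control and 401 to 416 in PTH.

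Trp53 and Mdm2 both rose. Trp53 (p53, chromosome 11, 69393861 to 69405375) had 32.0, 29.0 and 30.5 FPKM in Control and 52.1, 51.5 and 53.9 in PTH. The groups stood far apart, and the mean went from 30.5 ± 1.503 to 52.5 ± 1.28 FPKM (SD, n = 3). The log2 change was 0.76 with a standard error of 0.042 (limma adjusted p = 7.71e-06), and 14.9% of tested entries changed more. Mdm2 (chromosome 10, 117125961 to 117147772) had 35.8, 36.9 and 35.1 FPKM in Control and 50.1, 47.6 and 49.0 in PTH. Its log2 change of 0.43 with a standard error of 0.034 (limma adjusted p = 3.77e-05) was smaller than that of Trp53, and it was 0.27 under median-of-ratios scaling. Mdm2 was 1.18 ± 0.0813 times as abundant as Trp53 in Control and 0.932 ± 0.0273 times in PTH (SD, n = 3), so that their order turned in every library.

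Ordered by level, the Control libraries ran Cdkn1a, Cdkn2a, Ccnd2, Ccnd1, Cdkn2b, Ccnd3, Mdm2, Trp53, Cdkn2c and Cdkn1b. Neighbours in this order did not overlap between any libraries except Cdkn2c and Cdkn1b. With PTH the order was the same but for Trp53 and Mdm2, which changed places. Cdkn1a and Cdkn2a then overlapped (298 ± 5.07 and 293 ± 4.92 FPKM), as did Ccnd1 and Cdkn2b (104 ± 2.69 and 103 ± 3.54). In Control Ccnd1 had been 2.91 times Cdkn2b.

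Kinases, cyclins and other genes that act around the start of DNA synthesis were called about as often as other entries. Cdk6, a partner of D cyclins, had 1.88, 2.13 and 1.97 FPKM in Control and 3.48, 3.71 and 3.44 in PTH (log2 change 0.60, limma adjusted p = 6.6e-05). Cdk4, the other partner, named here after its values were seen, went from 138 ± 9.70 to 186 ± 2.74 FPKM (SD, n = 3, limma adjusted p = 0.000371), and was thus far more abundant than Cdk6 in both groups. Ccne1, the cyclin E1 gene, rose from 9.15 ± 0.288 to 19.3 ± 0.744 FPKM, a ratio of 2.11 (limma adjusted p = 1.65e-06), and Cks1b, a cofactor in the destruction of p27, from 35.2 ± 3.42 to 58.2 ± 1.16 (limma adjusted p = 0.000113). Of 9 such genes 7 rose and 2 were not called, Cdc25a and Skp2, which is 77.8% called against 73.8% of all entries. The median change of these genes was 0.43, against 0.15 over all entries. Both Cdc25a and Skp2 were called lower under median-of-ratios and quantile normalization.

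The retinoblastoma gene itself fell. Rb1 had 10.2, 11.9 and 11.1 FPKM in Control and 5.06, 5.17 and 4.84 in PTH. The groups were far apart, and the ratio of Control to PTH was 2.20 (log2 change -0.997, limma adjusted p = 9.56e-06). Its relative Rbl2 (p130) also fell, from 11.7 ± 0.123 to 9.22 ± 0.318 FPKM (SD, n = 3, limma adjusted p = 0.00018), whereas Rbl1 (p107) was not called (6.40 ± 0.457 and 6.93 ± 0.347). Rbl1 and Rbl2 are named because they complete this family. Of the other members, E2f8, an E2F repressor, rose from 1.45 ± 0.173 to 2.56 ± 0.293 FPKM (limma adjusted p = 0.000971) and E2f6, also a repressor, from 7.19 ± 0.612 to 10.6 ± 0.893 (limma adjusted p = 0.001). Of 12 tested Rb and E2F genes 8 rose, 2 fell and 2 were not called, with a median change of 0.35 against 0.15 over all entries, and E2f2 was below the filter of 1 FPKM. The share called was 83.3%, against 73.8% of all entries.

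Genes known to be driven by p53 did not move as a block. Gadd45a, a growth arrest gene, rose 10.1-fold, from 3.13, 2.80 and 2.76 FPKM in Control to 30.4, 26.6 and 30.3 in PTH (log2 change 2.95, limma adjusted p = 1.3e-07). The kinase gene Plk2 rose from 12.5 ± 1.19 to 29.5 ± 0.363 FPKM (SD, n = 3, limma adjusted p = 5.92e-06) and the secreted factor gene Gdf15 from 4.47 ± 0.554 to 11.2 ± 2.20 (limma adjusted p = 0.000382). Genes of the cell death pathway moved both ways. Named after their values were seen, Bax, Tnfrsf10b, Apaf1, Pidd1 and Aen were higher with PTH, at 1.402, 1.48, 1.24, 1.31 and 1.28 times the Control level (largest limma adjusted p = 0.00136, for Apaf1). The lower calls of this list were likewise named after their values were seen. Pmaip1 (NOXA) fell from 4.62 ± 0.340 to 2.68 ± 0.260 FPKM (limma adjusted p = 0.000249), Bbc3 (PUMA) from 5.38 ± 0.210 to 3.62 ± 0.182 (limma adjusted p = 0.000141) and Fas from 13.7 ± 0.671 to 10.3 ± 0.573 (limma adjusted p = 0.000554). The remaining lower call, Trp53inp1, was not stable. It had 29.5 ± 1.47 and 27.01 ± 0.877 FPKM (limma adjusted p = 0.0453, 0.00308 to 0.128 over the alternatives), and it was not called in 5 of 6 fits with a library left out, nor with a replicate block (limma adjusted p = 0.0958). Of 25 tested targets other than Cdkn1a and Mdm2, 15 rose, 4 fell and 6 were not called, and Perp was below the filter. That is 76.0% called against 73.8% of all entries, and the median change of 0.30 was 0.16 above that of all entries. Under median-of-ratios scaling 14 of the 25 rose and 8 fell, beside 4060 and 4057 of all 11900 entries.

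Among proteins that control p53, Hipk2, a kinase that phosphorylates it, fell from 8.57, 9.99 and 9.61 FPKM in Control to 2.87, 3.17 and 2.83 in PTH, a log2 change of -1.39 (limma adjusted p = 3.31e-06). Rchy1, a ubiquitin ligase for p53, rose from 18.3 ± 0.831 to 30.4 ± 1.00 FPKM (SD, n = 3, limma adjusted p = 1.19e-05), and the checkpoint kinase gene Chek2 from 3.76 ± 0.120 to 5.45 ± 0.238 (limma adjusted p = 0.000132). Of 13 such genes 10 rose, 1 fell and 2 were not called, which is 84.6% called against 73.8% of all entries. Their median change of 0.21 was only 0.060 above that of all entries. Under median-of-ratios scaling 4 of the 13 rose, beside 4060 of the 11900 entries.

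Known regulators of the Cdkn2a locus were also read. The T-box repressors of this locus moved in opposite directions. Tbx3 rose from 1.03, 1.07 and 1.39 FPKM in Control to 13.3, 12.7 and 12.9 in PTH (ratio 11.2, limma adjusted p = 2.3e-07), while Tbx2 fell from 7.32, 6.67 and 7.24 to 0.845, 0.818 and 0.890 (ratio of Control to PTH 8.31, limma adjusted p = 1.67e-07). Tbx3 in PTH was thus above the Tbx2 level of Control. Rnf2, a Polycomb ubiquitin ligase, rose from 18.4 ± 0.453 to 25.9 ± 0.538 FPKM (SD, n = 3, limma adjusted p = 1.91e-05). Of 11 genes in this list 6 rose, 4 fell and 1 was not called, where 50.3% of all entries rose and 23.5% fell.

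Markers of cycling cells, which overlap with genes of DNA replication and mitosis, all rose. All 11 were called higher, as were 50.3% of all entries, with a median change of 0.65, and their summed level was 194 to 221 FPKM in Control and 312 to 343 in PTH. Aurkb, Top2a and Cdk1 rose most, by 0.76, 0.73 and 0.72 on the log2 scale (limma adjusted p of 0.000361, 0.000243 and 4.46e-05). Under median-of-ratios and quantile normalization 10 of 11 were called, Mki67 being the exception, beside 68.2% and 69.3% of all entries. The cycling markers therefore moved up in the same libraries in which Ccnd1 and Ccnd2 moved down and the INK4 genes moved up, and the part of a cycling subset of cells in the changes of these genes was not tested.

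**Figure D4:**
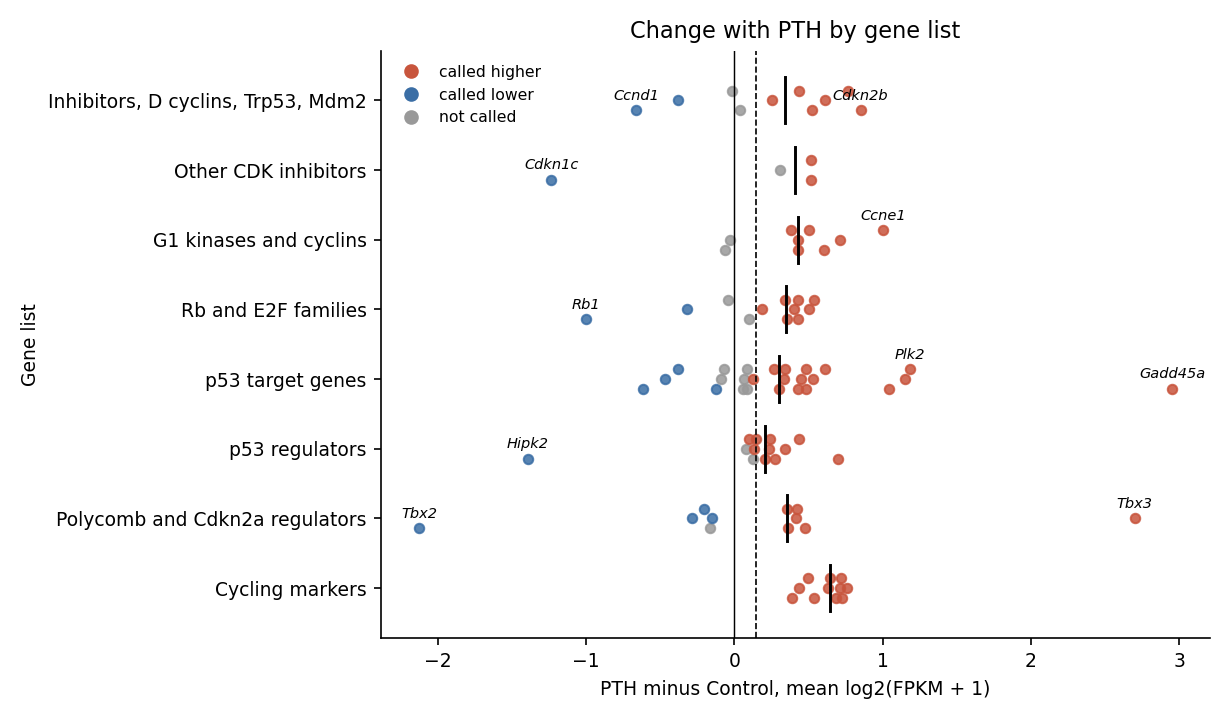
Change with PTH on the log2(FPKM + 1) scale (x axis) of every tested gene in 8 lists (rows), with points in red for genes called higher, blue for lower and grey for not called, and a black bar at each list's median. The dashed line is the median of all tested entries (0.15), and the medians of the lists lie between 0.21 for the p53 regulators and 0.65 for the cycling markers.

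The 3 genes with the largest changes were also compared with all 10605 named tested entries by the shape of their values over the 6 libraries, each centred on its Control mean. The profile nearest to Cdkn2b was that of Pgm1, at a Euclidean distance of 0.040 log2 units, followed by C1qtnf6 (0.047) and Ttll12 (0.049). Nearest to Trp53 were Klhl26 (0.037), Ttll5 (0.042) and Akr1b8 (0.043), and nearest to Ccnd1 were Mtmr1 (0.054), Alx4 (0.063) and Lrba (0.070). Such neighbours were common, with 184, 299 and 199 entries within 0.2 log2 units of Cdkn2b, Trp53 and Ccnd1.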

How the data were processed

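Poly(A) libraries without strand marking were made from the RNA of 6 wells and run on 1 lane. The authors deposited, for each library, gene-level FPKM with bounds of the estimate for 23700 entries. The submitters' processing notes name mm9, CASAVA 1.8, TopHat, Bowtie2, SAMtools and Cuffdiff. For the rest, versions and annotation were not given in the sources used here. A deposited Cuffdiff table of fold changes, p-values and group FPKM was not used.

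Groups came from the sample titles. No label says whether the wells were separate cultures. The p-values therefore measure only well-to-well spread, which may be technical. The test was limma 3.58.1 (R 4.3.3, moderated variances with a trend on level) applied to log2(FPKM + 1), a scale that understates changes of weakly expressed genes. It took in the 11900 entries that averaged 1 FPKM or more. Col1a1 and Col1a2, which had no estimate in Control, were left out of the test and of the scalings. The TPM scaling thus divides by an FPKM sum without these genes. All 60 values of the 10 genes had status OK. Implied fragments are the square of FPKM over its standard error, taking the upper bound as 2 standard errors above FPKM. They are approximate, since only 67.7% of the implied numbers of low entries lay within 0.05 of a whole number. The test was checked on simulated data.

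The genes and lists were chosen with earlier results of these data known. All 10 genes are named, with up to 3 called members of each other list that changed most, and the 3 nearest profiles of the 3 genes that changed most. Not every gene named after its values were seen is marked. Uncalled genes named singly, such as Cdc25a, Skp2 and Cdkn3, carry no mark. Coordinates are 1-based on mm9 and promoters are from RefSeq. Alternatives were 2 pseudocounts, 2 filters, 3 scalings, no variance trend, fewer entries by status, a replicate block and each library left out.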

Additional observations from a re-analysis of the deposited data

How the results depend on the processing

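The 10 genes were refitted under 16 alternatives, which gives 160 values. Of these, 153 kept both direction and call, and none of the 8 called genes lost its call or turned. The other 7 concern Cdkn1a and Cdkn1b. Cdkn1a was called lower by median-of-ratios (-0.18), TPM (-0.087) and quantile normalization (-0.14), and it was 0.015 without Control replicate 1, a change of sign with no call (limma adjusted p = 0.768). Leaving out each library in turn moved it between -0.053 and 0.015 (range of limma adjusted p over all alternatives 0.00121 to 0.984). Cdkn1b was -0.11, -0.026 and -0.072 under the same 3 scalings (limma adjusted p over the alternatives 0.04 to 0.887). The median change of all entries was 0.0026 (near 0 by design), 0.091 and 0.044 under them against 0.15 as deposited. The split of all called entries was 5988 higher and 2791 lower with FPKM as deposited, 4060 and 4057 under median-of-ratios, 5154 and 3212 under TPM and 4611 and 3636 under quantile normalization. The split of p53 regulators went from 10 higher and 1 lower to 4 and 1, 6 and 1, and 6 and 1. With no filter 9390 of 23698 entries were called.

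Replicate numbers are shared by the groups, but same-numbered libraries did not deviate together (r = -0.079, 0.0016 and -0.038 across entries). With 3 libraries a group, such correlations cannot settle whether the numbers mark pairs. With a replicate block 8600 entries and the same 8 of the 10 genes were called, and the within-number sign flips of the 3 ratios gave p = 0.25 (exact), the smallest that 3 pairs allow. Leaving out each library in turn gave 8081 to 8461 called entries, 8 of the 10 genes each time, and a fall in the share of Ccnd1 between -9.47 and -8.63 percentage points. Depth limits Cdkn2c and Cdkn1b most, and 3 libraries a group cannot give an exact p below 0.1.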
